A study of Mus musculus with 6 samples.

Results

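The genes described here are 10 mouse genes for secreted or surface-bound effector molecules of lymphocytes: Ifng, Tnf, Csf2, Il2, Il10, Il17a, Lta, Ltb, Tnfsf11 and Penk. They were chosen by symbol, with earlier results of these data known, and all 10 were present among the 31053 genes of the count matrices. The data were single-cell RNA-seq libraries made with the 10x Genomics 3' v3.1 chemistry, in which each captured transcript is counted once through a unique molecular identifier (UMI). The labels gave YUMM2.1, a mouse melanoma cell line, as the source, and 2 groups entered the comparisons: cells labelled Empty vector (hashtag replicates h1, h7 and h8) and cells labelled Bmal1 WT (h3, h5 and h9). Bmal1, encoded by Arntl, is a core transcription factor of the circadian clock. The sources used here gave neither strain, treatment, time and age nor whether the hashtags marked separate mice, so p-values measure only the spread between hashtag replicates, which may be technical. Each group was 1 droplet channel, so that group and channel cannot be told apart. For the label Bmal1 bHLH, 3 of 3 deposited parts duplicated the Bmal1 WT parts, and they were not used.

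The 2 libraries held 3978 and 2386 kept cells, with medians of 5094 and 7570.5 UMIs, and 5 barcodes occurred in both. Despite the cell line label, most cells carried markers of immune cells, and the melanoma gate (Sox10, Erbb3, S100b, Mcam) held 146 Empty vector and 400 Bmal1 WT cells. Arntl in that gate was at 61.0, 120.3 and 52.4 CPM (UMIs per 1000000 gene UMIs of the summed cells) in Empty vector and at 51.2, 60.2 and 60.8 CPM in Bmal1 WT, with overlapping replicates. These replicates held only 30, 6 and 24 Empty vector and 26, 74 and 27 Bmal1 WT melanoma gate cells with a hashtag. The value of h7 came from 9 UMIs. The sources used here do not say whether transcripts of the construct carry the counted 3' end, so this does not check the labels. Cells were sorted in software by UMIs of marker genes, none of them among the 10 cytokine genes. The T gate (Cd3d, Cd3e, Cd3g) held 736 Empty vector and 284 Bmal1 WT cells, the NK gate (Ncr1, Klrb1c, Klre1) held 1039 and 391, a gate with both kinds of marker held 292 and 89, and the myeloid gate (monocyte or macrophage plus dendritic cells) held 1057 and 613.

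Cytokines of T and NK cells act on neighbouring cells through surface receptors, and their genes are transcribed in short bursts after the cell's antigen or activating receptor is engaged. Subsets are known by the cytokines they make: interferon gamma from NK cells, CD8 and type 1 helper cells, IL-17A from type 17 helper and gamma delta T cells, and IL-10 from regulatory and other CD4 cells. Lymphotoxins and RANKL, members of the TNF family, shape lymphoid tissue and bone, and their messages are also read in resting lymphocytes.

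Lta, Tnf and Ltb lie side by side on mouse chromosome 17 in GENCODE M21 (GRCm38). Ltb spans 35194439 to 35196320 on the plus strand, Tnf spans 35199381 to 35202007 on the minus strand, and Lta spans 35203165 to 35205351 on the minus strand, with 3060 bases between Ltb and Tnf and 1157 between Tnf and Lta. Il17a and Il10 are both on chromosome 1, at 20730905 to 20734496 and 131019845 to 131024974 on the plus strand. Ifng is on chromosome 10 at 118441046 to 118445892, plus strand, and Penk on chromosome 4 at 4133531 to 4138819, minus strand. Penk and Csf2 each overlap an annotated noncoding transcript on the opposite strand, and Il2 overlaps Adad1 there. The sources used here give no statement on counting by strand, and reads of such pairs were not examined. On the same strand, Ifng overlaps Gm49751, and Lta and Ltb each overlap a microRNA gene.

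Promoters of 4 members are shown because their transcripts had 4 different sources in these cells. Ifng was shared by T and NK cells, Il17a was found in few T cells, Tnf was higher in myeloid than in T or NK cells, and Ltb was high in T cells and present in several other gates. RefSeq promoters (GRCm38.p6, from 250 bases before to 50 after the annotated start, 300 bases) were at hand for 8 of the 10 genes. Capitals mark matches on either strand to GGAAA (the core bound by NFAT factors), TGANTCA (a loose form of the AP-1 site, any base at N), the kappaB consensus (whose match in Ltb overlaps GGAAA) and TATAAA.
Ifng, chr10:118440796-118441095, plus strand: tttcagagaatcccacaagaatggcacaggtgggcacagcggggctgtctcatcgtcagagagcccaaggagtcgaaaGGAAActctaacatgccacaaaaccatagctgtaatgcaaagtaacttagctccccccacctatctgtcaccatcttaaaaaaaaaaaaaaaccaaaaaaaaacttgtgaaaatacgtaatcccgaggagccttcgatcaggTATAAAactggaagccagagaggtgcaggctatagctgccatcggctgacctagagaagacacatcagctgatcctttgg
Il17a, chr1:20730655-20730954, plus strand: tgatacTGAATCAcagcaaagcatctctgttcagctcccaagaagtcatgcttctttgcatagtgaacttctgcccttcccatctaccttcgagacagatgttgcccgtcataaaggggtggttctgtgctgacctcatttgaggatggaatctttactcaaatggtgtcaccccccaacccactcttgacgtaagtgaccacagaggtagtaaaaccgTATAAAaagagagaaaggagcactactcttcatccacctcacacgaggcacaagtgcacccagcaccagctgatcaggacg
Tnf, chr17:35201958-35202257, minus strand: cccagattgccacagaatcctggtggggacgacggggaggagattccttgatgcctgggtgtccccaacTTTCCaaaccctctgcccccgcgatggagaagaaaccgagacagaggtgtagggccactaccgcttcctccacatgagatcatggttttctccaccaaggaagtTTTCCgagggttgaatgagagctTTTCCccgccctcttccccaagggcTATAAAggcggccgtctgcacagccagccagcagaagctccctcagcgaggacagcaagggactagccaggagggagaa
Ltb, chr17:35194257-35194556, plus strand: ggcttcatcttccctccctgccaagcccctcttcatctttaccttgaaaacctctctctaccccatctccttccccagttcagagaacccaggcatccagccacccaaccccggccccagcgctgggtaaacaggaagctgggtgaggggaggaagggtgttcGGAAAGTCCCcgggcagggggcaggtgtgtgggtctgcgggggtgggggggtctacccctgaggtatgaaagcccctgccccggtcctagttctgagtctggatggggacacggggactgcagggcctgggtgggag
TATAAA was present anywhere in the window in 6 of the 8 promoters (Ifng, Tnf, Il2, Il17a, Lta, Tnfsf11), against 13.6% of all 32851 promoters in the table. Relative to the annotated start, the match began at -167 in Lta and at -32 to -29 in the others. GGAAA was present in 7 of the 8, all but Il17a, against 61.3% of all promoters. TGANTCA was found only in the Il17a window among the 8, against 7.81% of all, and the kappaB consensus only in the Ltb window, against 1.63%. The Il17a match read TGAATCA, and whether AP-1 binds it was not tested.

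Ifng, the gene of interferon gamma, which activates macrophages and raises antigen presentation, was read in T and in NK cells at overlapping levels and near 0 in myeloid cells. In the T gate it was at 136, 63.2 and 91.3 CPM in Empty vector h1, h7 and h8 and at 81.9, 32.1 and 48.9 CPM in Bmal1 WT h3, h5 and h9. In the NK gate the same replicates had 79.9, 65.6 and 81.3 CPM, and 129, 59.96 and 37.8 CPM. The 6 replicates thus overlapped between the gates, and the fitted T minus NK difference was -0.01 ± 0.17 (log2, SE, adjusted p = 0.998, edgeR quasi-likelihood test with hashtag replicate as a block, Benjamini-Hochberg over all genes). Each SE of a fitted difference was worked back from the test, as the size of the log2 difference divided by the square root of F. Of the 12080 genes in that test 27.7% were called at an adjusted p under 0.05. Against the myeloid gate, where 9 Ifng UMIs were counted in 1499 cells with a hashtag, Ifng was higher by 7.11 ± 0.32 in T and 7.12 ± 0.31 in NK cells (adjusted p = 1.53e-14 and 1.13e-14). Those comparisons called 69.1% and 66.1% of genes, a background against which the calls of members below are to be read. Ifng was also read in the gate with both marker kinds, at 45.2 to 137 CPM over the 6 replicates. In the melanoma gate, which should lack it, 0 Ifng UMIs were found in 146 and 400 cells, which allows up to 2.05% and 0.75% of cells with a UMI.

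Tnf, the gene of tumour necrosis factor, was the only member higher in myeloid than in T cells. Its level was 34.3, 23.1 and 28.7 CPM in the Empty vector myeloid replicates and 28.7, 16.6 and 42.4 CPM in Bmal1 WT, against 4.93 to 30.4 CPM over the 6 T gate replicates. The T minus myeloid difference was -1.18 ± 0.28 (adjusted p = 0.000928), and the NK minus myeloid difference was -4.19 ± 0.41 (adjusted p = 1.07e-08). Within the myeloid gate Tnf lay mostly in the monocyte or macrophage part, at 26.3 to 74.2 CPM, with 0 to 19.4 CPM in the dendritic part. The small granulocyte or mast cell gate (Csf3r, Cxcr2, Fcer1a, Ms4a2, Cpa3) gave 47 Tnf UMIs in 17 Empty vector cells, but 1 cell held 61.7% of them. It gave 13 in 11 Bmal1 WT cells, with 84.6% in 1 cell. These 28 cells held 7.29% of all Tnf UMIs, and they entered no test.

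Ltb, which encodes lymphotoxin beta, the membrane anchor of the lymphotoxin heterotrimer, was the most widely detected member, with UMIs in 2003 of 6364 kept cells. In the T gate it stood at 513, 571 and 410.4 CPM in Empty vector and at 476, 461 and 457 CPM in Bmal1 WT. NK levels were 189.9, 166 and 181 CPM, and 147, 178 and 257 CPM, all below every T gate replicate. The T minus NK difference was 1.40 ± 0.17 (adjusted p = 1.69e-06) and the NK minus myeloid difference 2.81 ± 0.20 (adjusted p = 4.11e-11). Dendritic cells carried some Ltb as well, at 41.4, 89.6 and 41.8 CPM in Empty vector and at 26.4, 20.6 and 11.7 CPM in Bmal1 WT. By contrast, fibroblast gate cells had 1 Ltb UMI in 103 Empty vector cells and 0 in 144 Bmal1 WT cells.

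Lta (lymphotoxin alpha, the soluble partner of Ltb), Tnfsf11 (RANKL, the ligand that drives osteoclast formation) and Il2 (the T cell growth factor) were largely T gate genes. Lta had 194 UMIs in the T gate replicates against 10 in NK and 13 in myeloid cells. Tnfsf11 had 577 against 14 and 3, and Il2 had 72 against 6 and 11. Their T minus NK differences were 4.71 ± 0.41, 5.59 ± 0.38 and 3.95 ± 0.57 (adjusted p = 8.71e-09, 1.71e-10 and 1.31e-05). Csf2, the gene of the myeloid growth factor GM-CSF, was barely detected, with 25 UMIs in the T gate, 9 in the NK gate and 1 in the myeloid gate, and its T minus NK difference of 1.58 ± 0.61 was not called (adjusted p = 0.0603). Of the 104 Csf2 UMIs in all kept cells, 16 came from 1 fibroblast gate cell. The 3 UMIs of Tnfsf11 and the 1 of Csf2 in myeloid cells give ratios of T over myeloid levels of 491 (95% interval 167 to 2387) and 63.8 (10.4 to 2619), intervals which cover counting error only.

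Il10 (an anti-inflammatory cytokine), Il17a (a cytokine that recruits neutrophils) and Penk (proenkephalin, the precursor of opioid peptides, which activated and regulatory T cells can express) were confined mostly to the T gate and to few cells. Il17a had 722 UMIs in T gate cells with a hashtag and 0 in 1233 NK and 1499 myeloid cells, at least 289-fold and 614-fold higher against a floor of 3 counts over each gate. Of these UMIs 595 were in h1, without which the bounds were 55.1-fold and 108-fold. Il10 had 465 UMIs in the T gate, 2 in the NK gate and 20 in the myeloid gate, and was higher in T than in myeloid cells by 5.66 ± 0.34 (adjusted p = 3.18e-12). Penk had 759 T gate UMIs, 1 in NK and 3 in myeloid cells, but fibroblast gate cells also carried it, with 46 UMIs in 25 of 144 Bmal1 WT cells and 12 in 10 of 103 Empty vector cells. T against NK called 8 of the 10 members, each higher in T cells. T against myeloid called 10, of which 9 were higher in T cells. NK against myeloid called 5, with Ifng, Ltb, Csf2 and Tnfsf11 higher and Tnf lower in NK cells. Of these, Csf2 rested on 9 against 1 UMIs and Tnfsf11 on 14 against 3. The median of all genes was 0.11, 0.32 and 0.19 above 0 in these 3 comparisons, and TMM scaling shifted it to 0.01, -0.04 and -0.07. The share of calls that were higher in the first gate went from 65.2% to 52.8%, from 63.2% to 44.1% and from 57.7% to 42.7% with that scaling, and members named as called above kept their direction.

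**Figure D1:**
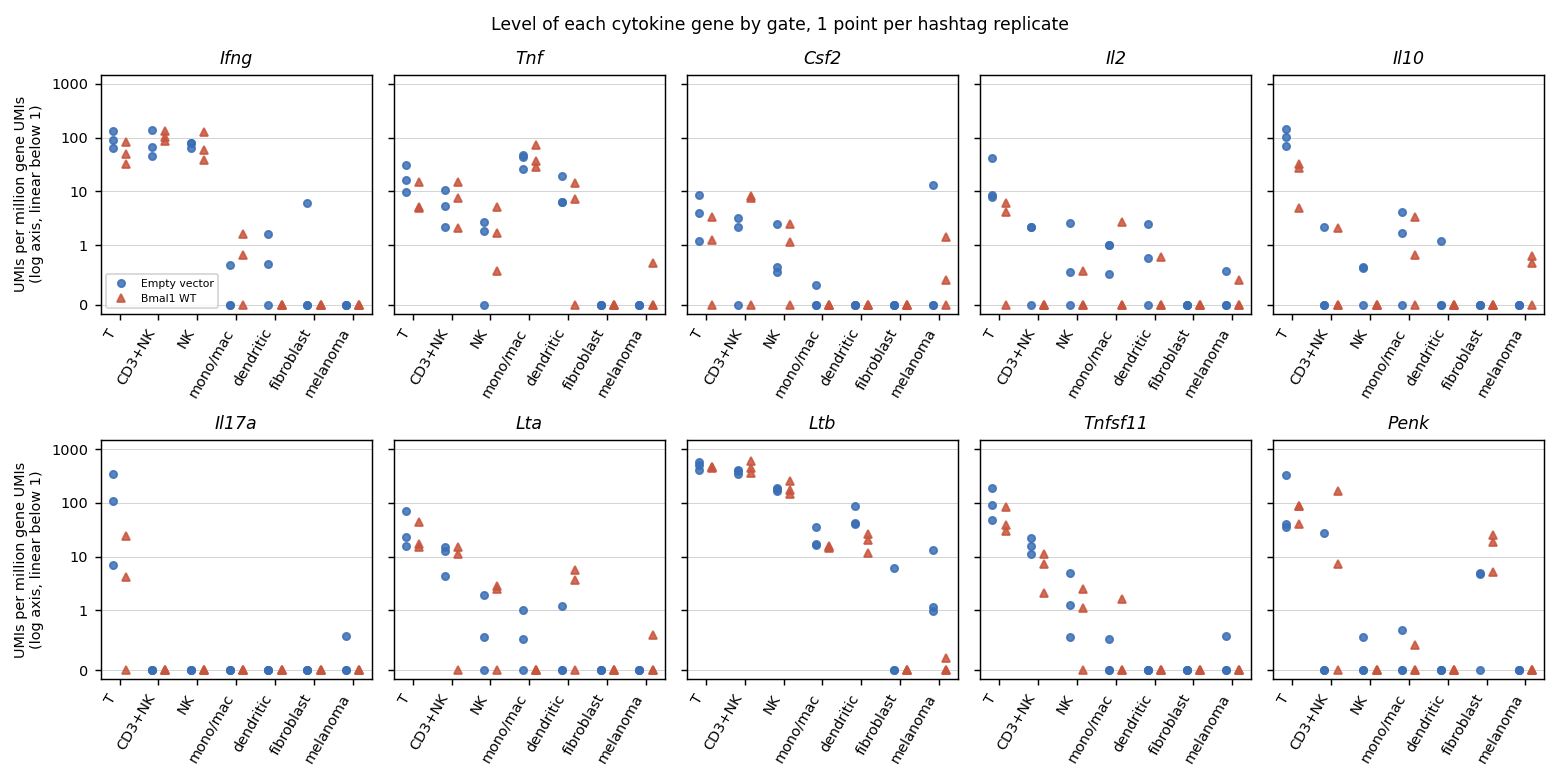
Level of each of the 10 genes (vertical axis, UMIs per 1000000 gene UMIs, log scale that is linear below 1) in 7 gates, with 1 point per hashtag replicate (circles Empty vector, triangles Bmal1 WT). Il17a lies at 0 in every replicate of the NK and both myeloid gates, Ifng overlaps between NK and T cells, and among the gates drawn Tnf is highest in monocyte or macrophage cells. Fibroblast and melanoma replicates hold few cells.

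Inside the T gate the UMIs of the members were counted in subsets defined by UMIs of Foxp3, of Cd8a or Cd8b1, of Cd4 or of the gamma delta genes Trdc or Cd163l1. At this depth (medians of 4180 and 5120 UMIs in the Cd4 subset), a cell with no Foxp3 UMI may still be a regulatory T cell. Cells of the Trdc or Cd163l1 subset were 55 of 736 Empty vector and 8 of 284 Bmal1 WT T gate cells. They held 603 of 731 Empty vector Il17a UMIs (82.5%), in 17 cells, and 0 of 25 in Bmal1 WT. In cells with a hashtag, 536 of these were in h1, 67 in h7 and 0 in h8. Of the 28 Empty vector cells with Il17a, 60.7% had Trdc, against 6.78% of the 708 T gate cells without Il17a. The Cd8 subset, 39.4% and 47.9% of cells, held 57.6% of Ifng UMIs in Empty vector and 54.0% in Bmal1 WT, but single replicates and cells set these shares. In Empty vector h1 had 191 Ifng UMIs in Cd8 and 23 in Cd4 cells, whereas h7 had 14 and 25 and h8 had 37 and 69. Without the 1 cell that held most Ifng UMIs, the Cd8 share was 53.2% in Empty vector and 38.9% in Bmal1 WT. Cells with a UMI of Foxp3, a marker of regulatory T cells, held 2.56% and 2.67% of Ifng UMIs.

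Ltb was found in all T subsets. Its largest share was in the Cd8 subset (36.4% and 46.2%), and Foxp3 cells, 10.5% and 15.8% of the T gate, held 22.8% and 26.7%. The Cd4 subset held 54.5% and 52.7% of Lta UMIs, of which 29 came from 1 cell in each group. Without that cell the Cd4 shares of Lta were 40.4% and 22.2%, and Cd4 cells were 24.2% and 22.9% of the T gate. The Cd4 subset held 76.7% of Penk UMIs in Empty vector and 44.2% in Bmal1 WT, where Foxp3 cells held 51.9%. These Cd4 shares came almost wholly from 1 replicate in each group. Penk UMIs in Cd4 cells with a hashtag were 0, 3 and 413 in h1, h7 and h8 and 77, 0 and 0 in h3, h5 and h9, while in Foxp3 cells they were 18, 27 and 33, and 24, 30 and 40. Of the 33 Empty vector cells with Penk, 60.6% also had Tnfsf11, against 15.4% of the 703 cells without Penk, and 72.2% of 18 against 17.7% of 266 did so in Bmal1 WT. Cells with Penk also had Cd4 more often, at 75.8% against 29.6% in Empty vector and 83.3% against 32.7% in Bmal1 WT. The part of Cd4 in the pairing with Tnfsf11 was not tested.

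**Figure D2:**
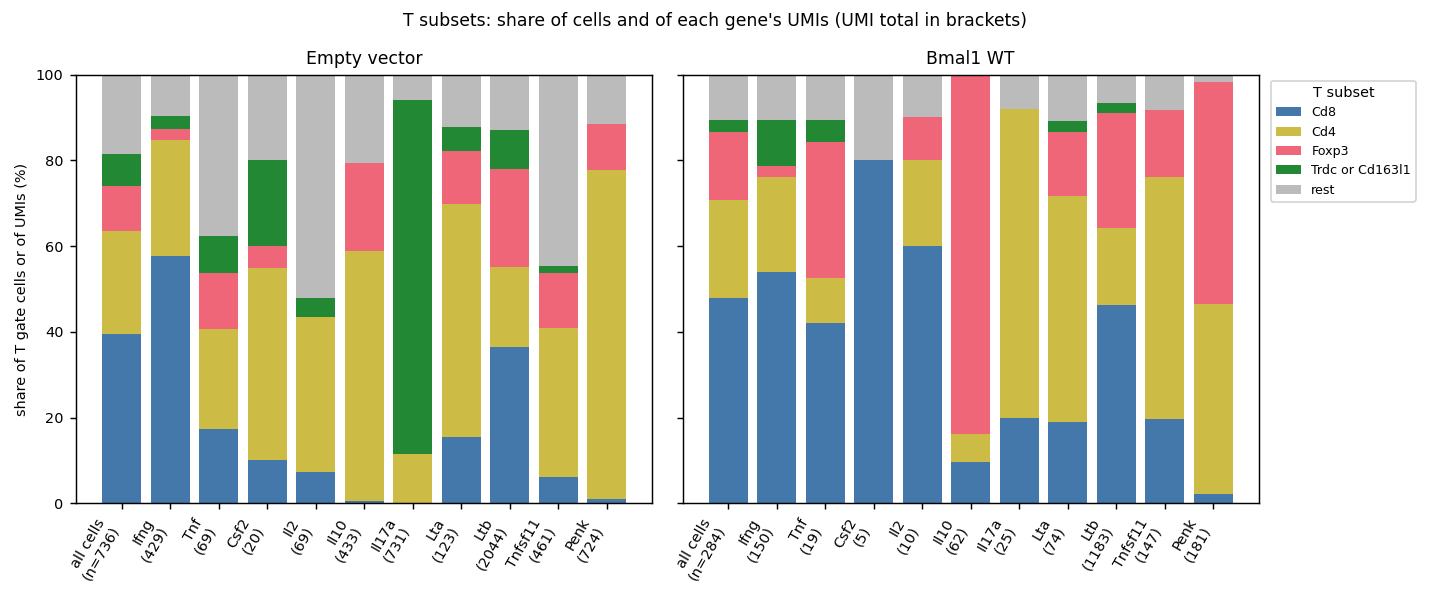
Share (%) of T gate cells (first bar) and of each gene's T gate UMIs (other bars, total UMIs in brackets) by T subset, in Empty vector (left) and Bmal1 WT (right). Il17a UMIs of Empty vector lie 82.5% in the Trdc or Cd163l1 subset, and Il10 UMIs of Bmal1 WT lie 83.9% in the Foxp3 subset.

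A few cells carried most of some transcripts. In the Empty vector T gate, 3 cells held at least 50% of all Il10 UMIs and 3 of all Penk UMIs, and 5 did so for Il17a, whereas 108 cells were needed for Ltb. A single Empty vector cell had 148 Il17a UMIs, and another had 164 Penk UMIs. The plot of UMIs in single T gate cells shows 3 Empty vector cells with 70 or more Il10 UMIs, and no Bmal1 WT cell above 13.

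**Figure D3:**
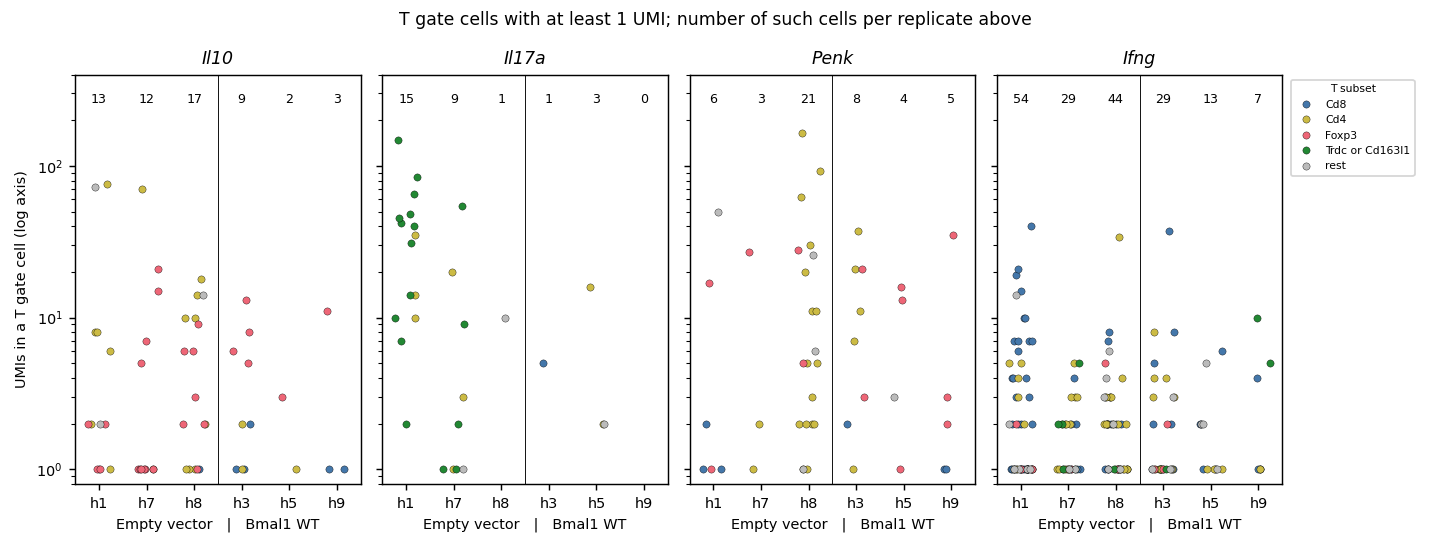
UMIs of Il10, Il17a, Penk and Ifng in single T gate cells with at least 1 UMI (vertical axis, log scale), by hashtag replicate (Empty vector left, Bmal1 WT right) and coloured by T subset, with the number of such cells above. Il10 reaches 76 UMIs in a cell of Empty vector and 13 in Bmal1 WT, and the Empty vector Il17a cells with many UMIs are mostly of the Trdc or Cd163l1 subset in h1.

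Between the groups, Il10 and Il17a were the members whose T gate level was lower in Bmal1 WT than in Empty vector at an adjusted p under 0.05. Of the 9437 genes tested in the T gate, 5.02% were called, 287 higher (60.5% of calls, 77.8% under TMM scaling, which called 527) and 187 lower in Bmal1 WT. Here, 2 of the 9 members tested were called, and Csf2 had too few UMIs to test. All 9 fitted differences were below 0, where 5554 of the 9437 genes were below 0 and the median over all genes was -0.09.

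Il10 was at 105, 146 and 71.0 CPM in Empty vector h1, h7 and h8 and at 32.6, 4.93 and 27.6 CPM in Bmal1 WT h3, h5 and h9. Every Empty vector replicate was above every Bmal1 WT replicate. The groups did not overlap, in either direction, for 27% of the genes tested. The difference was -2.24 ± 0.39 (log2, adjusted p = 0.00619). The share of T gate cells with an Il10 UMI was 6.54% ± 2.01 in Empty vector and 4.76% ± 2.03 in Bmal1 WT (4.25% and 2.66% with each cell thinned to 2000 UMIs), with overlapping replicates. In the melanoma gate, as background, 1 of 146 and 4 of 400 cells had an Il10 UMI, at deeper medians of 11142.5 and 23362 UMIs. UMIs per cell with Il10 were 10.1 ± 4.07 and 3.56 ± 1.35 and did not overlap (exact permutation p = 0.1, two-sided, the smallest that 3 against 3 allow). Here and for the shares of cells, ± gives 1 SD over replicates. How many of all genes do not overlap on this measure was not counted. It rests on few cells, with 43 Empty vector and 15 Bmal1 WT T gate cells with Il10, of which 3 in each group held at least 50% of its UMIs.

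In the Cd4 subset without Foxp3, Il10 was at 389, 302 and 115 CPM in Empty vector and at 12.1, 10.8 and 0 CPM in Bmal1 WT (exact permutation p = 0.1). Those Bmal1 WT replicates held 40, 14 and 10 such cells, with 4 Il10 UMIs. The Cd4 subset may still hold regulatory T cells in which no Foxp3 UMI was read. In Foxp3 cells it was at 20.5, 338 and 131 CPM, and at 97.4, 28.4 and 63.8 CPM, with overlap. Foxp3 cells were 7.79%, 11.8% and 13.3% of Empty vector T gate cells and 17.9%, 11.3% and 17.9% of Bmal1 WT ones. Leaving out the top Il10 cell of every replicate gave -2.43 (adjusted p = 0.00634), and leaving out the deepest 5% of cells gave -1.39 (adjusted p = 0.0393).

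Il17a was at 340.0, 108 and 7.03 CPM in Empty vector and at 4.18, 24.7 and 0 CPM in Bmal1 WT. Empty vector h8 lay below Bmal1 WT h5, so the groups overlapped. The difference was -3.92 ± 1.05 (adjusted p = 0.0485), and it was not called when any 1 of h1, h7, h3, h5 or h9 was left out (adjusted p 0.0672 to 0.193) or by DESeq2 (adjusted p = 0.281). Without h1 the difference was -2.35, and without h5 it was -5.66. The Trdc or Cd163l1 subset was 7.47%, 11.1% and 4.44% of Empty vector and 2.86%, 0% and 7.14% of Bmal1 WT T gate cells (exact permutation p = 0.2, adjusted p = 0.375 over 5 subsets). In summed counts fewer cells of a type and less RNA per cell cannot be told apart, and the part of this share in the Il17a difference was not tested.

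The other members tested in the T gate were not called. Ifng differed by -0.81 ± 0.31 (adjusted p = 0.145). The share of cells with a UMI at 2000 UMIs per cell was 11.7% ± 1.22 (SD) in Empty vector and 5.22% ± 2.48 in Bmal1 WT replicates. These shares did not overlap (exact permutation p = 0.1), and how many of all genes do so on this measure was not counted. Unthinned the shares were 18.7% and 16.5%, with overlap. Leaving out the top Ifng cell of every replicate gave -1.15 (adjusted p = 0.0418), which would be called. Il2 was at 8.57, 42.1 and 7.73 CPM in Empty vector and at 4.18, 6.16 and 0 CPM in Bmal1 WT, without overlap. In either direction 27% of the genes tested in the T gate did not overlap. The Il2 difference of -2.07 ± 0.79 was not called (adjusted p = 0.146). Of the 69 Il2 UMIs in Empty vector T gate cells, 28 (40.6%) were in 1 cell of h7.

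Tnf (-1.29 ± 0.53, adjusted p = 0.176) and Tnfsf11 (-0.98 ± 0.43, adjusted p = 0.199) had overlapping replicates. In Empty vector, 1 cell of h8 held 121 of the 461 T gate Tnfsf11 UMIs (26.2%). Without h1, Tnfsf11 differed by -1.37 and was called. Penk was at 41.1, 35.1 and 337 CPM in Empty vector and at 86.1, 40.7 and 89.2 CPM in Bmal1 WT, so that h8 alone stood high, and its difference of -0.98 ± 0.66 (adjusted p = 0.418) turned to 0.88 without h8. Lta and Ltb differed by -0.23 ± 0.50 and -0.10 ± 0.13 (adjusted p = 0.843 and 0.709). Ltb was thus the member with the narrowest error, and no difference was called.

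**Figure D4:**
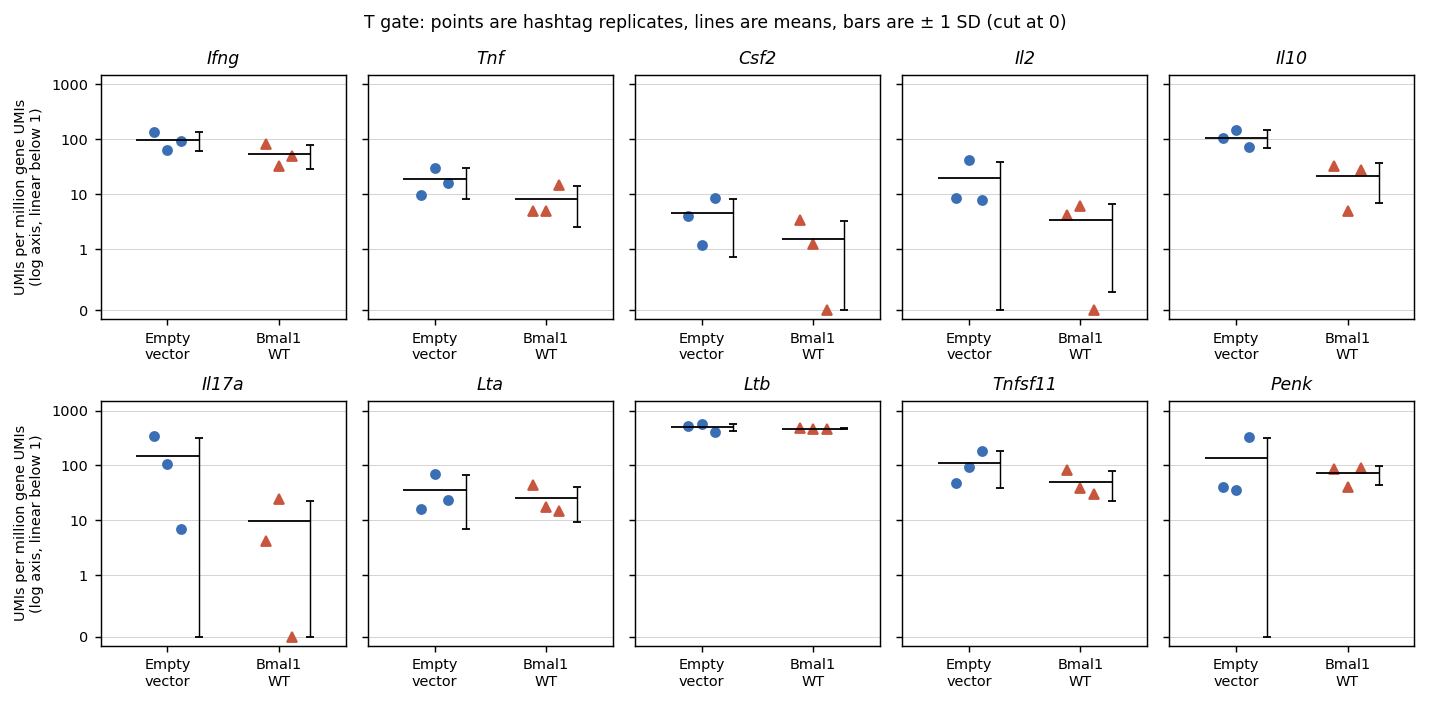
T gate level of each member (vertical axis, UMIs per 1000000 gene UMIs, log scale that is linear below 1) in the 3 Empty vector and 3 Bmal1 WT hashtag replicates, with the mean and 1 SD. The Il10 points of the groups are apart (71.0 CPM and above against 32.6 CPM and below), the Il17a points overlap, and the Ltb points lie close together.

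In the NK gate 2 members had enough UMIs, and neither was called, where 0.149% of 9385 genes were (14 genes, 105 by DESeq2). Ifng differed by 0.20 ± 0.26 (adjusted p = 0.807) and by -0.58 without h3, and Ltb by 0.05 ± 0.17 (adjusted p = 0.936). The non-overlap share of all genes was 17.6%, and both members overlapped. In the gate with CD3 and NK markers, 5 members were tested and none was called (0% of 8135 genes called, 12.3% without overlap, 400 at an unadjusted p under 0.05, 1 by DESeq2). Penk differed there by 2.40 ± 1.23 with UMIs in only 4 cells with a hashtag.

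In the myeloid gate Tnf differed by -0.03 ± 0.30 (adjusted p = 0.984), a sign that turned to 0.016 under TMM scaling. Ltb was at 25.0, 60.1 and 26.5 CPM in Empty vector and at 19.1, 17.1 and 13.9 CPM in Bmal1 WT, without overlap. In either direction 20.3% of 10783 genes did not overlap. Its difference of -1.07 ± 0.35 was not called (adjusted p = 0.252), nor was any gene of that gate (0%), although 1486 had an unadjusted p under 0.05 and DESeq2 called 125.

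The test of whether the group difference itself differed between gates called 0 of 12080 genes for T against NK (533 at an unadjusted p under 0.05), for T against myeloid (864) and for NK against myeloid (493). For Ifng the T minus NK value was -0.86 ± 0.31 (unadjusted p = 0.0118, adjusted p = 1). For Ltb the T minus myeloid value was 0.90 ± 0.32 (unadjusted p = 0.0109, adjusted p = 0.513). Its NK minus myeloid value was 1.02 ± 0.33 (unadjusted p = 0.00596, adjusted p = 0.988). For Lta the T minus myeloid value was -1.88 ± 0.87 (unadjusted p = 0.0431, adjusted p = 0.680). For Il17a, with 0 UMIs in the NK and myeloid gates, the test could not decide, and its SE had no meaning. Il10 had only 2 NK and 20 myeloid UMIs. No gate was shown to differ from another in the change of these genes, which does not show that the gates changed alike.

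**Figure D5:**
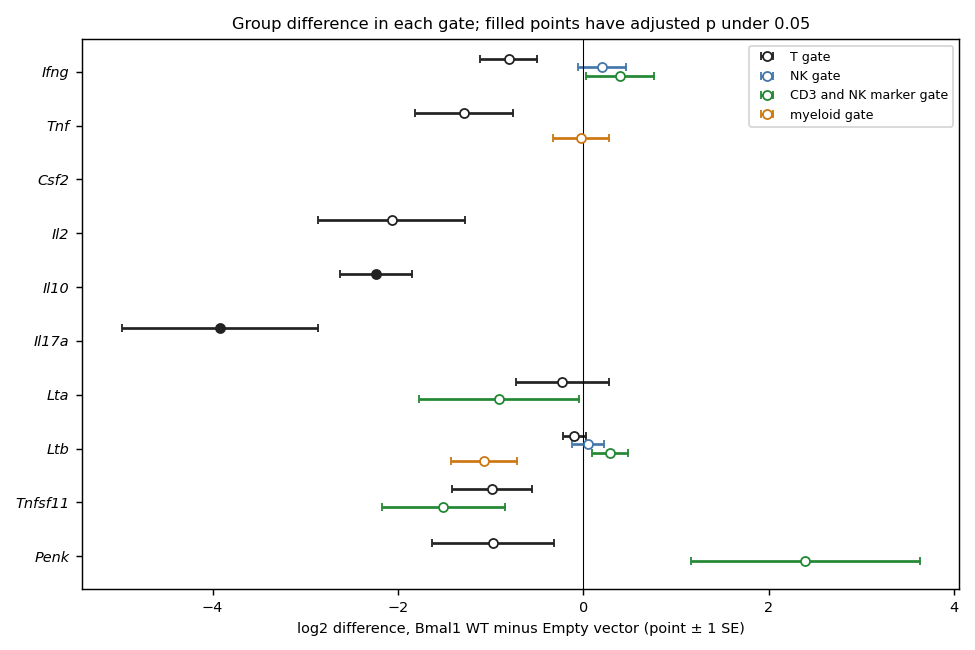
Fitted log2 difference (horizontal axis, Bmal1 WT minus Empty vector, point with 1 SE) of each member in the 4 gates where it had enough UMIs. Il10 and Il17a in the T gate, at -2.24 and -3.92, are the filled points with an adjusted p under 0.05.

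Genes of the same pathways were read alongside, in lists chosen with earlier results of these data known. Of 21 other lymphocyte cytokines, 16 were tested in the T gate, 1 was called lower and 0 higher, with a median difference of -0.77 against -0.09 over all genes. That gene was Il4, the type 2 helper cytokine, at 29.2 CPM in Empty vector and at 4.65 CPM in Bmal1 WT (-2.91 ± 0.54, adjusted p = 0.00912). Among all 9437 genes tested there, 5554 were below 0 and 5.02% were called. Of 20 regulators, 19 were tested and 3 were called lower, with 18 of the 19 below 0 and a median of -0.48. These were Zfp36 (-1.12 ± 0.16, adjusted p = 0.00247), whose protein binds AU-rich cytokine messages and promotes their decay, Nfatc1 (-0.67 ± 0.16, adjusted p = 0.0278), a factor activated by calcium signalling, and Zfp36l1 (-0.48 ± 0.12, adjusted p = 0.0394), a relative of Zfp36. Of 20 receptor genes, 11 were tested in the T gate and none was called, with a median of -0.37 and 3 at an unadjusted p under 0.05. In the NK, CD3 and NK marker and myeloid gates, no gene of these 3 lists was called.

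Of 10 genes known to respond to tissue dissociation and stress, 3 (Junb, Egr1 and Fos) were called lower in Bmal1 WT T gate cells, and 7 were not called. Among all 9437 genes tested in that gate, 5.02% were called, and this list too was chosen with earlier results known. Junb, at 2722 CPM in Empty vector and at 1475 CPM in Bmal1 WT, made up most of the summed level of the list, which was 3320 to 4485 CPM in Empty vector and 1923 to 2700 CPM in Bmal1 WT, without overlap. The summed level did not overlap either in the NK gate (3428 to 4011 against 2498 to 3201 CPM) or in the myeloid gate (7732 to 9988 against 6069 to 7351 CPM). It overlapped in the gate with CD3 and NK markers (2688 to 3456 against 1734 to 3049 CPM). Among single genes tested, the groups did not overlap for 27% in the T gate, 17.6% in the NK gate and 20.3% in the myeloid gate. T gate cells also differed in depth, with medians of 4291.5 and 5991 UMIs. The part of these in the cytokine differences was not tested. NK markers in the T gate summed to 15.2 to 29.1 CPM in Empty vector and 7.40 to 14.9 CPM in Bmal1 WT, and their 3 genes were all above 0. The 3 fibroblast markers reached at most 2.47 CPM there, and 1 of them was at 0.

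Over 24 levels (12 gates and T subsets in each library) the genes most like each member were found by Pearson correlation of log2(CPM + 1), as a description, since these levels share libraries. Ifng was most like Gm2682, Fasl and Cd96 (r = 0.98, 0.97 and 0.97). Il10 was most like Sdf4, Penk and Ccr4 (0.83, 0.83 and 0.82), and Penk was most like Izumo1r, Tff1 and Sdf4 (0.90, 0.86 and 0.85). Tnf was most like Ppp1r15a, Nfkbiz and Osbpl8 (0.91, 0.88 and 0.88), the first 2 of which are induced by stress and by NF-kappaB. Ltb was most like Tbc1d10c (0.98), Lta like Xlr4c (0.93) and Tnfsf11 like Trat1 (0.95), a T cell receptor adaptor. The closest gene to Il17a, Znrf1, reached only 0.69, and Csf2 and Il2 had under 200 UMIs and were not ranked.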

How the data were processed

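The authors deposited raw UMI counts per gene, hashtag and cell barcode in matrices made by Cell Ranger 6.1.2, with mm10 named in the submitters' processing notes. Barcodes with at least 200 genes and at most 20% mitochondrial UMIs were kept. Hashtags were called with a 2-component mixture (scikit-learn 1.9.0), and no doublet caller was run. Kept cells with several hashtags (368 Empty vector, 105 Bmal1 WT) or with none (388 and 660) were left out of all replicate values and fits. A gate needed at least 2 marker UMIs and 75% of gate UMIs. UMIs were summed per hashtag replicate, which gave 4655548 to 11873279 gene UMIs a replicate, and genes with at least 30 UMIs were tested with edgeR 4.0.16 (quasi-likelihood, library size as total UMIs) under R 4.3.3, with Benjamini-Hochberg adjustment. Replicates with under 10 cells were left out, which affected none of the main fits. DESeq2 1.42.0, Leiden clusters and other settings were alternatives. The fits were checked on simulated data. Intervals cover counting error only. The members and lists were chosen with earlier results of these data known. All 10 members were named. Of the lists, genes past the threshold were named. Bounds use a floor of 3 counts. A result on 1 further gene is not reported here.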

Additional observations from a re-analysis of the deposited data

How the results depend on the processing

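Il10 in the T gate stayed lower in Bmal1 WT and past the threshold under every alternative run, from -1.39 without the 5% deepest cells to -2.93 without h3 (highest adjusted p 0.0468, by DESeq2). Il17a stayed lower but lost the call with DESeq2 (adjusted p = 0.281), a filter of 100 UMIs (0.0512), gates at 3 UMIs (0.0593), Leiden clusters (0.0789), the 5% deepest cells left out (0.0712) and the top cell left out (0.0501). The alternatives without the top cell, and the Il17a bounds with a replicate left out, were chosen after seeing the data. The count of T gate members called was 2, and 1 with DESeq2, with a filter of 100 UMIs, with gates at 3 UMIs, with Leiden clusters, without the 5% deepest cells or without the top cell of each member, 3 without the top cell of each member in every replicate, and 7 with no filter beyond 1 UMI. It was 1 to 2 when any replicate was left out. The count over all T gate genes was 474, rose to 984 with no filter, fell to 195 without the 5% deepest cells and ranged from 157 to 402 with a replicate left out. In the NK gate 14 genes were called, against 31 with TMM scaling, 105 with DESeq2, 204 with no filter, 38 with stricter cell filters, 8 with Leiden clusters and 93 without the deepest cells, with 0 (without h1) to 159 (without h7) on leaving out a replicate. In the gate with CD3 and NK markers 0 were called, against 1 with DESeq2, 18 with no filter (1 of them a member) and 3 without the deepest cells, and 0 to 1 with a replicate left out. In the myeloid gate 0 were called, against 125 with DESeq2 and 138 with no filter. The cause was not tested in any of these.

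Among members that were not called, some values turned sign. Lta in the T gate turned to 0.10 without the deepest cells, 0.23 without its top cell and -1.01 to 0.53 with a replicate left out, and Ltb there to 0.030 without the deepest cells and -0.22 to 0.0094 with a replicate left out. Penk there ranged from -1.44 to 0.88. In the NK gate Ifng ranged from -0.58 to 0.42, and Ltb from -0.16 to 0.26 and to -0.018 without the top cell of every replicate. Lta in the CD3 and NK marker gate ranged from -1.68 to 0.12. Myeloid Tnf turned to 0.016 with TMM scaling, 0.042 with DESeq2, 0.028 with stricter cell filters, 0.074 with hashtags by centred log count, 0.16 without the deepest cells, 0.15 without its top cell and ranged from -0.33 to 0.24. Ifng between the T and NK gates turned to 0.044 with gates at 3 UMIs and ranged from -0.23 to 0.17. Il2 between the NK and myeloid gates turned to 0.15 without the replicate block and ranged from -0.70 to 0.030, and Penk there from -1.92 to 0.50.

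No paired analysis was possible because Empty vector and Bmal1 WT share no hashtag. For the gates of the same replicates the fit had the replicate as a block. With no replicate block 2897, 8048 and 7674 genes were called, and 8, 10 and 5 members. Over all settings T against NK called 7 to 9 members, T against myeloid 8 to 10 and NK against myeloid 4 to 6. NK against myeloid called 4 with a filter of 100 UMIs, without the top cell of each member, or without h1, h3 or h8. Depth limits Csf2 and Il2 most, with 104 and 132 UMIs in all kept cells.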
